A study of Mus musculus with 59 samples.

Results

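Livers of 1-month-old mice that lack E2f3a (3aKO, 10 arrays) were compared with livers of wild-type mice (wt, 12 arrays) to see which transcripts differ at that age. The comparison took every wt and 3aKO array of the first of the deposited normalizations, so it holds 22 of the 37 arrays in the series, and it covered all 18193 genes that had a probe set with exactly 1 gene symbol. Wt and 3aKO mice were 4 weeks old and shared a strain background mixed from FVB/NT, 129S1/Svlmj and C57BL/6NT. RNA was extracted with Trizol, and 5 µg of it was labelled with biotin and hybridized to 1 mouse expression array of 45101 probe sets per sample. The same normalization holds 10 arrays of E2F1 knock-in liver (1KI), and a second normalization of the same wt and 3aKO arrays holds 5 of E2F3b knock-in liver (3bKI). The labels do not say whether the knock-out is present in the germ line or in hepatocytes alone, nor whether each array came from its own animal. The p-values therefore rest on variation among arrays that could be technical.

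E2F proteins are transcription factors that bind DNA together with a DP partner and control genes needed for entry into S phase. Retinoblastoma-family pocket proteins hold them in check until cyclin-dependent kinases phosphorylate the pocket proteins. The E2f3 locus makes a longer protein, E2F3a, from a distal start site and a shorter one, E2F3b, from a start site inside the first intron, and both share the DNA-binding domain and the C-terminal part. In young liver, hepatocytes are leaving the cell cycle and take up adult metabolism, which includes lipoprotein secretion and fasting responses.

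Upstream sequences of both E2f3 start sites are shown because the deleted isoform starts from one of them, and that of Septin10 because it was the called gene with the same kind of site. They are the 250 bases before the start in RefSeq (GRCm38.p6), read 5′ to 3′ on the minus strand, the strand of both genes, with matches to an E2F site in capitals. The letters searched on both strands were TTTCCCGC, TTTCGCGC, TTTGCCGC and TTTGGCGC, in windows that also held 50 bases after the start. The table does not name isoforms, and the start at the higher coordinate is the distal one.
E2f3 distal start, chr13:29986064-29986313: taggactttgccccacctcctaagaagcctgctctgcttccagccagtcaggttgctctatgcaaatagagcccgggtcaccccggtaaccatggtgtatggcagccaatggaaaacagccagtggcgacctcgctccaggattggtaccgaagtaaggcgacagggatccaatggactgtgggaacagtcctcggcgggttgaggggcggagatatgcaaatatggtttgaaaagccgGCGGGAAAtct
E2f3 proximal start, chr13:29984392-29984641: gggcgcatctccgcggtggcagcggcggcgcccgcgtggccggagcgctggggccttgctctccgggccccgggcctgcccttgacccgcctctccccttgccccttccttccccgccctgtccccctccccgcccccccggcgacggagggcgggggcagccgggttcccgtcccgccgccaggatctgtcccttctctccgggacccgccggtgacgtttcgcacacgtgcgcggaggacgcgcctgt
Septin10, chr10:59221501-59221750: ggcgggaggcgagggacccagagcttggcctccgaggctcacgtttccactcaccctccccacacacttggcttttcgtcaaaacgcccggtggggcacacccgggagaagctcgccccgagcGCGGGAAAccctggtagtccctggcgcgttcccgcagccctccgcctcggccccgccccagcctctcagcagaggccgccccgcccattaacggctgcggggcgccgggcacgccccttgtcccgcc
The distal E2f3 window held 1 match, GCGGGAAA at position -11 from the start site, and the proximal window held 0. Of the 32 genes called in 3aKO against wt (0.176% of those tested), 28 had a window and 1 of these, Septin10, held a match, at position -127. That is 3.57%, beside 3.81% of the 14452 tested genes with a window (550 genes). A match is a description of the letters in the window and not a binding site.

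Signals of the first normalization ran from 2.22 to 15.05 on the log2 scale, the medians of the 22 wt and 3aKO arrays lay between 5.91 and 5.99, and the correlation of any 2 arrays was between 0.9875 and 0.9976. Wt replicates 1 and 2 stood apart from the other wt and 3aKO arrays in the spiked-in hybridization controls, with mean log2 signals of 11.5 and 11.4, while the other 10 wt arrays lay between 9.86 and 10.5 and the 3aKO arrays between 9.97 and 10.4. They had the level of the 1KI arrays, which lay between 11.0 and 11.8, so this control level differed by group. The group means were 10.4 ± 0.50 (SD, n = 12) and 10.2 ± 0.12 (n = 10). The 3' minus 5' difference of Gapdh and Actb, which grows as RNA is degraded, was 0.558 ± 0.050 in wt and 0.625 ± 0.064 in 3aKO. That difference of 0.067 had a permutation p of 0.0130 and an adjusted p of 0.0522 over 4 control measures (2-sided, 100000 resamples). Y-linked signal was present on 7 of 12 wt arrays and 5 of 10 3aKO arrays.

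E2f3, the targeted gene, was lower in 3aKO by less than the test across all genes required. On the brighter of its 2 probe sets the wt arrays ran from 7.70 through a median of 7.99 to 8.29, and the 3aKO arrays from 7.5 through 7.72 to 7.97, so the groups overlapped while all 10 3aKO arrays lay below the wt mean. The change was -0.25 ± 0.07 (log2, moderated SE; adjusted p = 0.134, limma). The dimmer probe set had a change of -0.17 ± 0.06 with an unadjusted p of 0.0129 in the limma fit of all probe sets. The files do not say which exons the probe sets cover, and E2F3b transcripts share most of the gene, so these values check the knock-out only in part. The other activating E2F genes gave values near 0, with 0.04, -0.05 and -0.03 for the 3 probe sets of E2f1 and 0.01 and 0.04 for both of E2f2. Of the 40 tested genes nearest to E2f3, 20 on each side, 0 passed in limma, beside 0.176% of all genes. An unadjusted p under 0.05 was found for 6 of the 40, beside 11.9% of all genes. On the chromosome of E2f3 lay 0 of the 32 called genes.

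In all, 32 of 18193 genes passed an adjusted p of 0.05 in limma, 20 higher in 3aKO (0.11%) and 12 lower (0.066%). The median size of these changes was 0.36 on the log2 scale, beside a median change of -0.01 over all genes. Ppargc1a and Mme rose by over 2-fold, and 7 of the 32 moved by over 1.5-fold. In 25 of the 32, all 10 3aKO arrays lay on one side of the wt mean, and in 2 (0.011% of the genes tested) the groups did not overlap at all. These were Apob, lower in 3aKO (0.0055%), and Scaf11, higher (0.0055%). The split was 21 higher and 7 lower when array medians were made equal. The number of calls was 15 without wt replicates 1 and 2 and all 32 kept their sign there, with changes between 0.776 and 1.08 times those given here. Lost there were Col4a5, Mpst, Tlx2, Gprin3, Necab2, Zfp800, Aadacl2fm1, Cnot6l and Mtpn. Srp72, Kdelr1, Dnajc6, Mirt1, Dhx36, Rflna, Scd1 and Sytl1 were lost too. The number of calls was 16 without 3aKO replicate 3, 17 without 3aKO replicate 5, 53 without wt replicate 5, 55 without wt replicate 12 and 56 without 3aKO replicate 10. Celf2, Septin10, Dcaf12l1, Mme and Zfy2 passed in each of the alternative fits that tested them, and 12 of the 32 in each of the 22 fits that left out 1 array. The other 20 calls were lost without at least 1 array, from 1 array for Col4a5, Mpst, Gprin3 and Svs5 (3aKO replicate 3) and Tlx2 (3aKO replicate 5) to 15 arrays for Sytl1.

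**Figure D1:**
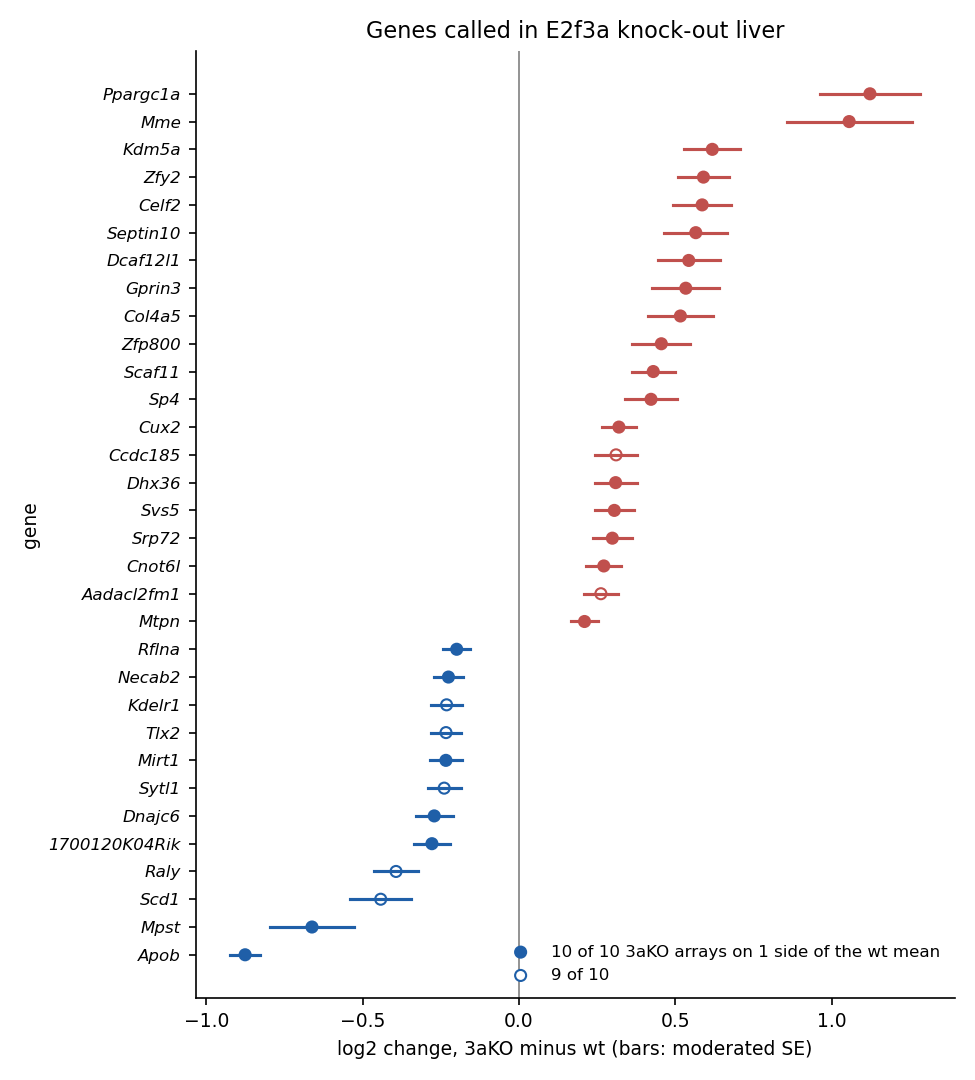
Log2 change of the 32 called genes (horizontal axis, 3aKO minus wt, with bars of 1 moderated SE), 20 higher in red and 12 lower in blue. Filled points have all 10 3aKO arrays on 1 side of the wt mean and open points 9 of 10. Ppargc1a, at 1.12, and Mme, at 1.06, lie farthest to the right and Apob, at -0.88, farthest to the left.

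Lipid genes held the change with the smallest p. Apob encodes the large apolipoprotein around which hepatocytes build and secrete very low density lipoprotein. On its brighter probe set the wt arrays lay between 13.85 and 14.09 (median 13.92) and the 3aKO arrays between 12.79 and 13.31 (median 13.11), with a gap between the groups. Apob was 1.83-fold lower, a change of -0.88 ± 0.05 (adjusted p = 9.19e-15, limma). The dimmer Apob probe set went the other way, from 10.99 to 12.34 in wt and from 11.89 to 12.44 in 3aKO. Its change was 0.45 ± 0.12 with an unadjusted p of 0.000863 in limma and an adjusted p of 0.103, so the Apob call holds for the brighter probe set and not for the mean of both, which was -0.21. Wt replicates 1 and 2 gave the lowest values of that dimmer probe set, 10.99 and 11.06, and the change without them was 0.31 ± 0.10. On the brighter probe set the change without them was -0.85 ± 0.05.

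Scd1, the desaturase that makes oleate and palmitoleate, fell as well. Its wt arrays ran from 13.58 through 13.84 to 14.20 and its 3aKO arrays from 13.04 through 13.43 to 13.89, so the groups overlapped and 8 of 10 3aKO arrays lay below every wt array. The change was -0.44 ± 0.10 (1.36-fold lower, adjusted p = 0.0401, limma), and the second, dimmer Scd1 probe set had -1.07 ± 0.30 (unadjusted p = 0.00115, adjusted p = 0.106). The call was lost without any 1 of 13 arrays, wt replicates 1, 3, 4, 6, 8, 10 and 11 and 3aKO replicates 2, 4, 5, 6, 7 and 9. Scd1 was 1 of 23 tested genes of fatty acid and triglyceride synthesis and the only one to pass. Fasn, chosen after its value was seen, had -0.12 ± 0.13, and Pnpla3, a lipid-droplet protein, -0.54 ± 0.24 with an adjusted p of 0.363. The list median was -0.07. Of 29 tested apolipoprotein and lipoprotein assembly genes, Apob was the one that passed, 0 rose, and the list median was -0.02. Mttp, which loads lipid onto apolipoprotein B, was at -0.14 ± 0.09 and was also chosen after its value was seen. Among 23 genes of fatty acid oxidation and PPAR alpha response, 0 rose and 0 fell in limma. At an unadjusted p under 0.05, 1 was higher and 2 lower, beside 4.92% and 6.99% of all genes. Those list members were Cd36, a fatty acid receptor (0.52 ± 0.14, adjusted p = 0.126), Acads (-0.18 ± 0.07) and Acot1 (-0.60 ± 0.28). Cholesterol synthesis and uptake genes gave 0 calls of 17, with Stard4 at 0.16 ± 0.07 and Hsd17b7 at 0.22 ± 0.11.

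Ppargc1a, a coactivator that turns on gluconeogenic and mitochondrial genes in fasted liver, rose 2.18-fold. The wt arrays lay between 6.73 and 8.03 (median 7.34) and the 3aKO arrays between 7.79 and 8.88 (median 8.68), and 8 of 10 3aKO arrays lay above every wt array. The change was 1.12 ± 0.16 (adjusted p = 0.000296, limma). Wt replicates 1 and 2 were the lowest wt arrays at 6.77 and 6.73, and the change was 1.00 ± 0.16 without them. The other 4 probe sets of Ppargc1a had changes of 0.37 to 0.45, each with an unadjusted p under 0.01 in limma and none passing after adjustment, and the mean over all 5 was 0.55, which did not pass. Genes that PGC-1 alpha works with or that mark the fasted state did not pass. Of 27 tested, 0 rose and 0 fell, and the median was 0.01. At an unadjusted p under 0.05, 1 was higher and 3 lower, beside 4.92% and 6.99% of all genes. Pcx, the first enzyme of gluconeogenesis from pyruvate, was at -0.21 ± 0.08, the insulin receptor substrate Irs2 at -0.43 ± 0.15 and Creb1 at 0.15 ± 0.05, with adjusted p from 0.243 to 0.283. Pck1 and G6pc, chosen after their values were seen, were at 0.05 ± 0.05 and -0.32 ± 0.19. The 40 oxidative phosphorylation subunit genes lay between -0.11 and 0.10, with 0 calls and 1 at an unadjusted p under 0.05.

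**Figure D2:**
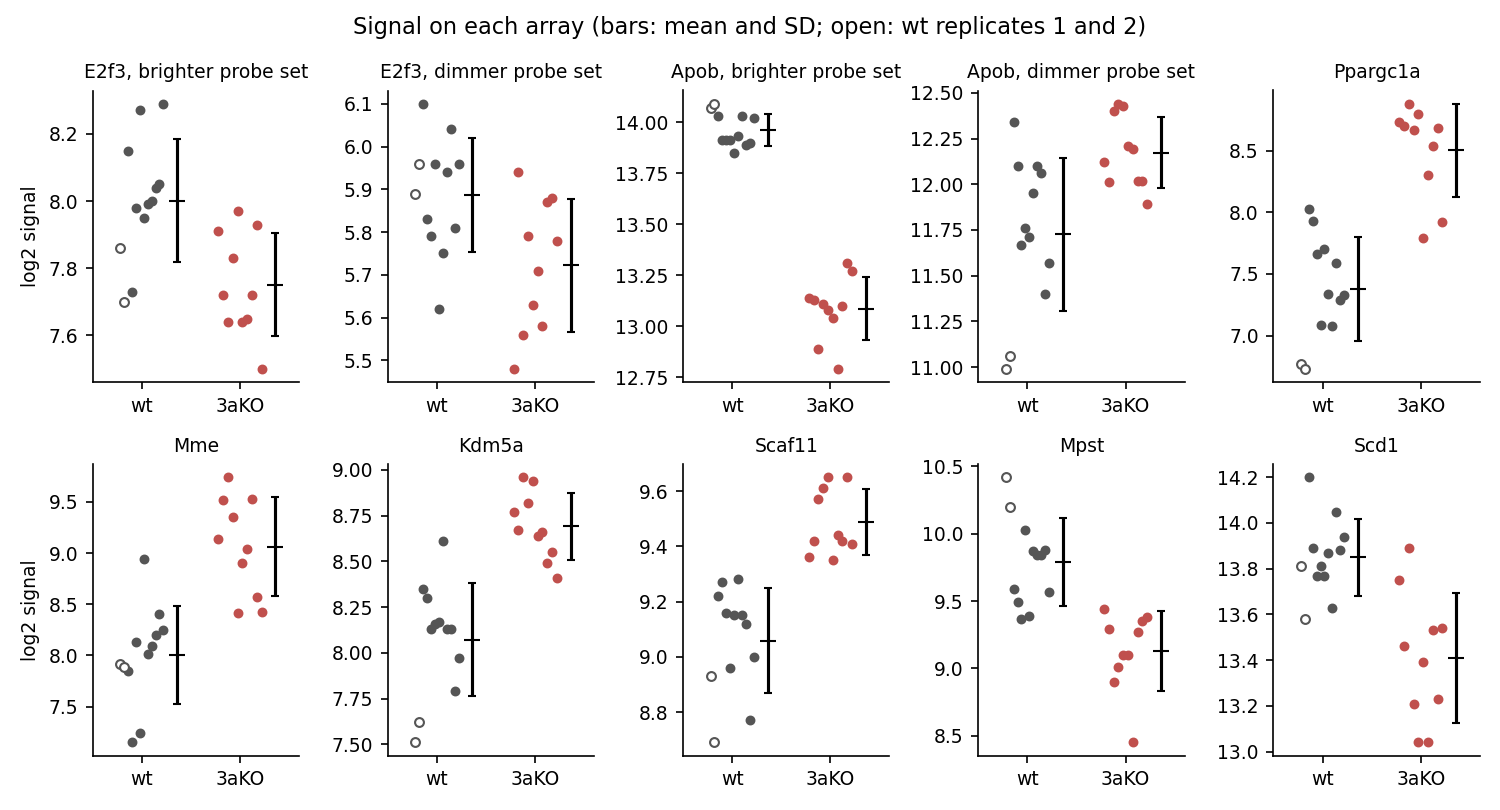
Log2 signal (vertical axes, which differ between panels and do not start at 0) on each of the 12 wt and 10 3aKO arrays, with mean and SD beside the points and wt replicates 1 and 2 drawn open. The groups are apart for the brighter Apob probe set and Scaf11, overlap for the others, and the dimmer Apob probe set runs opposite to the brighter one.

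Called genes that act on chromatin, transcription and RNA are given together. Kdm5a, a demethylase of histone H3 lysine 4 that binds the retinoblastoma protein, rose from a wt median of 8.13 (7.51 to 8.61) to a 3aKO median of 8.67 (8.41 to 8.96). The change was 0.62 ± 0.09 (1.54-fold, adjusted p = 0.000296, limma), and 0.52 ± 0.07 without wt replicates 1 and 2, its lowest wt arrays. A second of the 6 Kdm5a probe sets was called too (0.50 ± 0.10), and the other 4 lay between -0.12 and 0.11. Kdm5b, a related demethylase, had 0.32 ± 0.09 with an adjusted p of 0.123. Kdm5a was the only one of 18 tested H3K4 demethylases and methyltransferases that passed, and the median was 0.02. That list was chosen with earlier results of these data known.

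Scaf11, a protein of the spliceosome, ran from 8.69 to 9.28 in wt and from 9.35 to 9.65 in 3aKO, with no overlap and medians of 9.14 and 9.43. Its change was 0.43 ± 0.07 (adjusted p = 0.00116, limma). The other 3 Scaf11 probe sets were at -0.03, 0.02 and 0.08, so the call belongs to 1 of 4 probe sets. Celf2, a regulator of alternative splicing and RNA stability, was different in that 3 of its 7 probe sets were called, with 0.59 ± 0.09, 0.58 ± 0.11 and 0.56 ± 0.09. On the brightest, wt arrays lay between 7.67 and 8.53 (median 8.07) and 3aKO arrays between 8.40 and 9.11 (median 8.69). Raly, an RNA-binding protein of the hnRNP C family, fell by 0.39 ± 0.07 (adjusted p = 0.00572, limma), from a wt median of 8.76 to 8.38. Of 31 tested splicing regulators and nuclear RNA-binding proteins, 2 rose and 1 fell. The list was chosen with earlier results of these data known and includes these called genes, so that count is a description. The mean was higher in 3aKO for 27 of the 31 genes, beside 45.1% of all genes, and the median of the list was 0.05.

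Among transcription factors, Cux2 rose by 0.32 ± 0.05, Sp4 by 0.42 ± 0.08 and the zinc finger gene Zfp800 by 0.46 ± 0.09 (adjusted p of 0.0031, 0.0179 and 0.0234, limma). Cux2 is more highly expressed in female than in male adult liver. It was 1 of 16 tested genes known to differ between the sexes in adult liver, of which no other passed. The other Cux2 probe sets did not rise. On arrays with and without Y-linked signal, the called Cux2 probe set had wt means of 8.46 and 8.46 and 3aKO means of 8.84 and 8.72. Its change can therefore not be read as a change of a female-biased level. Sp4 had 1 array far above the rest, 3aKO replicate 5 at 7.14, and the change was 0.35 without it. Tlx2, a homeobox gene, fell by 0.23 ± 0.05. Zfy2, a Y-linked zinc finger gene, had 0.59 ± 0.08 (adjusted p = 0.000263), from a wt median of 5.87 to 6.46. The Zfy2 probe set gave a like signal on arrays with and without other Y-linked signal, with wt means of 5.95 and 5.79 and 3aKO means of 6.51 and 6.44, so its value cannot be read as the level of a Y-linked transcript. Other genes that rose were Cnot6l, a deadenylase of the CCR4-NOT complex (0.27 ± 0.06), and Dhx36, a helicase that unwinds G-quadruplexes (0.31 ± 0.07).

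Called genes with membrane, matrix or secretory functions are given next. Mme, the membrane peptidase neprilysin, rose 2.08-fold from a wt median of 8.05 (7.15 to 8.94) to a 3aKO median of 9.09 (8.41 to 9.74). Its change was 1.06 ± 0.20 (adjusted p = 0.0121, limma), and its second probe set was called at 0.80 ± 0.18. All 10 3aKO arrays lay above the wt mean and 6 above every wt array. Mme was the only one of 9 tested membrane peptidases that passed, and the list median was -0.06. Col4a5, a chain of basement membrane collagen, rose by 0.52 ± 0.10 (adjusted p = 0.0233) and its second probe set by 0.32 ± 0.07, and the gene call was lost without 3aKO replicate 3. Col4a3, another chain of the same collagen network, had 0.61 ± 0.19 and the laminin chain Lama5 -0.20 ± 0.05, with adjusted p of 0.177 and 0.125. Of 21 tested matrix and basement membrane genes, 1 rose and 0 fell. Kdelr1, which returns escaped proteins to the endoplasmic reticulum, fell by 0.23 ± 0.05 (adjusted p = 0.0340), as 1 of 24 secretory pathway genes. The peptidase, matrix and secretory lists were chosen with earlier results of these data known, so their counts are a description. Srp72, a subunit of the signal recognition particle, rose by 0.30 ± 0.06.

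Mpst, a mitochondrial and cytosolic sulfurtransferase that yields hydrogen sulfide from cysteine breakdown, had the second largest fall. Its wt arrays ran from 9.37 through 9.84 to 10.42 and its 3aKO arrays from 8.45 through 9.18 to 9.44, with 8 of 10 3aKO arrays below every wt array. The change was -0.66 ± 0.13 (1.58-fold lower, adjusted p = 0.0233, limma). Wt replicates 1 and 2 were the highest arrays, at 10.42 and 10.20, and the change without them was -0.56 ± 0.13 and no longer passed. The call was also lost without 3aKO replicate 3.

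Cytoskeletal and signalling genes among those that rose were Septin10, a filament-forming GTPase (0.57 ± 0.10, with its second probe set called at 0.46 ± 0.10), and Mtpn, myotrophin, a regulator of actin capping (0.21 ± 0.04). Dcaf12l1, a WD-repeat protein of the DCAF family, rose by 0.54 ± 0.10, with its second probe set called at 0.57 ± 0.14. Gprin3 rose by 0.53 ± 0.11. Of the 32 calls, 9 lay below the median gene signal of 6.91. Among these were Aadacl2fm1 (0.26 ± 0.05), Ccdc185 (0.31 ± 0.07), the noncoding Mirt1 (-0.23 ± 0.05) and 1700120K04Rik (-0.28 ± 0.06). The remaining calls were Svs5 (0.31 ± 0.06), Necab2 (-0.23 ± 0.05), Dnajc6, the clathrin-uncoating cochaperone auxilin (-0.27 ± 0.06), Rflna (-0.20 ± 0.04) and Sytl1 (-0.24 ± 0.05). Their changes were all under 1.5-fold.

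Probe sets of a gene read different stretches of its transcripts, so the other probe sets of the called genes were set beside the brightest. Of the 32 genes, 10 had 1 probe set and 22 had several, with 54 further probe sets. In 7 of the 22, another probe set was called with the same sign in the fit of all probe sets. These were Kdm5a, Celf2, Septin10, Dcaf12l1, Mme, Col4a5 and Zfp800, each of which rose. Without wt replicates 1 and 2 this held for 2 of the 7, Celf2 and Septin10, while the second probe sets of the other 5 kept changes of 0.31 to 0.79 with adjusted p from 0.0682 to 0.161. In 13 of the 22 another probe set had the same sign at an unadjusted p under 0.05, in 9 no other probe set did, and in 3 (Apob, Celf2 and Svs5) a dimmer probe set went the opposite way at that p. Those 9 include Apob, Scaf11, Cux2, Raly and Gprin3.

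The fit of all 34945 probe sets gave 148 calls (0.424%), 116 higher and 32 lower, from 134 genes. Of these, 108 probe sets belonged to 102 genes that had not passed by their brightest probe set, and 94 of the 108 were dimmer than the brightest of their gene. Among those 94 probe sets, 80 were higher in 3aKO and 14 lower. The higher ones had a median change of 0.41, while the brightest probe sets of the same genes had a median of 0.11. Of all probe sets that were not the brightest of their gene, 0.609% were called, beside 0.253% of the brightest. The 94 were chosen by this same contrast, so their sizes are a description. The number of called probe sets was 72 without wt replicates 1 and 2 and 254 with the 3' minus 5' difference as a covariate. It was 84, 85, 95 and 96 without 3aKO replicate 3, 5, 4 and 1, 93 without wt replicate 2, and 232 without 3aKO replicate 10.

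Genes among these dimmer probe sets are named here after their values were seen. They were picked from the 94 partly by what their products do, so a theme among them can come from the choice. No shared function was tested. Dimmer probe sets of Ddx46 (0.56), Vps13b (0.61), Eif3c (0.42), Gbf1 (0.64) and Sptbn1 (0.59) were also called and were passed over. Smc6, of the SMC5/6 complex, had 0.61 ± 0.08, with wt from 7.88 to 8.70 and 3aKO from 8.61 to 9.10. Smc1a, a cohesin subunit, had 0.37 ± 0.05, Nipbl, which loads cohesin, 0.37 ± 0.06, and Esco1, which acetylates cohesin, 0.48 ± 0.09. Chd4, the remodeller of the NuRD complex, had 0.62 ± 0.10 and 0.49 ± 0.08 on a pair of probe sets, Dnmt3a 0.50 ± 0.10 and Suz12, of Polycomb complex PRC2, 0.42 ± 0.08. The brightest probe sets of Smc6, Smc1a, Chd4 and Suz12 were at 0.17, -0.04, 0.21 and 0.21. Utrn, utrophin, had 0.93 ± 0.12 (5.43 to 6.11 in wt, 6.09 to 7.10 in 3aKO), against 0.07 for its brightest probe set. Adipor2, an adiponectin receptor of liver, had 0.84 ± 0.13 against 0.09, and Megf9 0.78 ± 0.13 against 0.23. Akap9 had 3 such probe sets, at 0.56, 0.59 and 0.42. Pcf11, which works in 3' end formation, had 0.51 ± 0.10, with wt from 6.32 to 6.94 and 3aKO from 7.05 to 7.40. Of the lower ones, Ccny had -0.86 ± 0.15, Sh3d19 -0.51 ± 0.09 and Prpf19, a spliceosome ubiquitin ligase, -0.39 ± 0.07, while their brightest probe sets lay at 0.00, 0.00 and 0.03. The nuclear noncoding RNA Malat1 had 2 called probe sets of 7, at 0.90 ± 0.21 for the brightest and 1.06 ± 0.24. A further one was at 0.96 ± 0.25 with an adjusted p of 0.0897, the other 4 lay between -0.05 and 0.21, and the mean over all 7 was 0.46. In the fit of genes Malat1 had an adjusted p of 0.0604, and without wt replicates 1 and 2, its lowest arrays, the change was 0.71 ± 0.19.

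**Figure D3:**
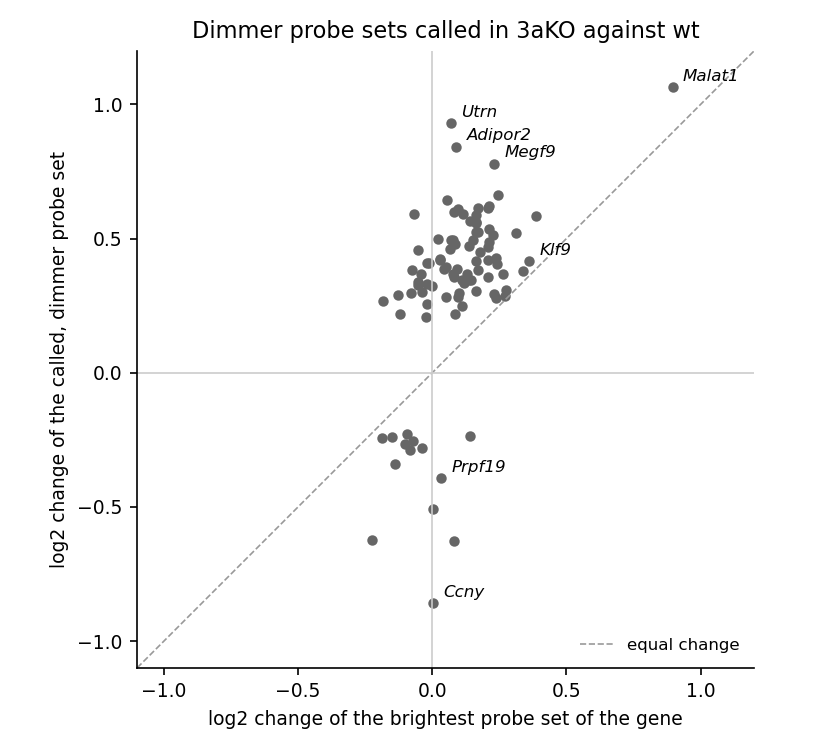
Each point is 1 of the 94 called probe sets that are dimmer than the brightest probe set of their gene, with its log2 change (vertical axis) against that of the brightest (horizontal axis), and the dashed line marks equal change. The 80 higher points lie mostly above the line, with a median of 0.41 against 0.11, and Malat1 is near the line at the upper right.

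Cell cycle genes, the best-known targets of E2F proteins, gave 0 calls. None of 39 tested G1/S and DNA replication genes passed in limma, and 1 of them, Tyms, the thymidylate synthase, was higher at an unadjusted p under 0.05 (0.23 ± 0.08, adjusted p = 0.214). Tyms signals were low, from 3.4 to 4.14 in wt and from 3.79 to 4.23 in 3aKO, beside a median gene signal of 6.91. The list median was 0.11 and the mean was higher in 3aKO for 31 of 39 genes, beside 45.1% of all genes. Changes within the list ran from -0.09 to 0.25. The 31 G2/M and mitosis genes had 0 calls, 0 at an unadjusted p under 0.05 and a median of 0.08. Only 8 of these 31 lay above the median gene signal, beside 28 of the 39 G1/S and DNA replication genes. The 10 genes of the E2F and DP family had 0 calls, with E2f5 at 0.16 ± 0.07 beside E2f3. The 18 pocket protein, cyclin, kinase and inhibitor genes had 0 calls, with 1, Cdkn2b, at -0.16 ± 0.07, and the 19 p53 target genes had 0 calls with Polk at 0.15 ± 0.07. Cdkn2b signals were low as well, from 4.19 to 4.57 in wt and from 4.01 to 4.74 in 3aKO. Across all genes, 11.9% had an unadjusted p under 0.05, 4.92% higher and 6.99% lower.

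Interferon-stimulated genes gave 0 calls of 32, with 9 higher and 1 lower at an unadjusted p under 0.05, beside 4.92% and 6.99% of all genes. The median was 0.12. Iigp1, an interferon-inducible GTPase, had 0.17 ± 0.05, the RNA sensor Ifih1 0.22 ± 0.07 and Ifit3 0.29 ± 0.10, with adjusted p from 0.135 to 0.210. Macrophage and Kupffer cell markers gave 0 calls of 17. At an unadjusted p under 0.05, 1 was higher (Csf1r, 0.22 ± 0.11), beside 4.92% of all genes. The mean was higher in 3aKO for 15 of the 17, beside 45.1% of all genes, and the median was 0.13. The mean level of these markers ran from 8.73 to 9.06 over the wt arrays and from 8.76 to 9.67 over the 3aKO arrays. In bulk liver, more cells of a type and more RNA per cell cannot be told apart, and the part of these cells in the interferon-stimulated values was not tested.

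Bile acid genes gave 0 calls of 21, but Abcc2, the canalicular exporter of conjugated bilirubin, stood just outside the threshold, at 0.36 ± 0.08 with an adjusted p of 0.0502. Its 3aKO arrays lay between 10.62 and 10.91 and its wt arrays between 10.07 and 10.90. The same probe set passed in the fit of all probe sets (adjusted p = 0.0336, limma), and Abcc2 passed in 8 of 14 alternative fits. Wt replicates 1 and 2 were its lowest wt arrays, at 10.13 and 10.07. Without them its change was 0.30 ± 0.08, with an adjusted p in limma of 0.184 over genes and 0.129 over probe sets. The bile salt export pump Abcb11 had 0.26 ± 0.10. Acute phase genes (29), heat shock genes (19), circadian genes (21) and fetal liver and IGF genes (15) gave 0 calls each in limma. At an unadjusted p under 0.05 they held 1, 0, 0 and 2 genes, beside 11.9% of all genes. Of these genes, Stat3 was at 0.19 ± 0.09 and Igf2 at -0.11 ± 0.05.

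**Figure D4:**
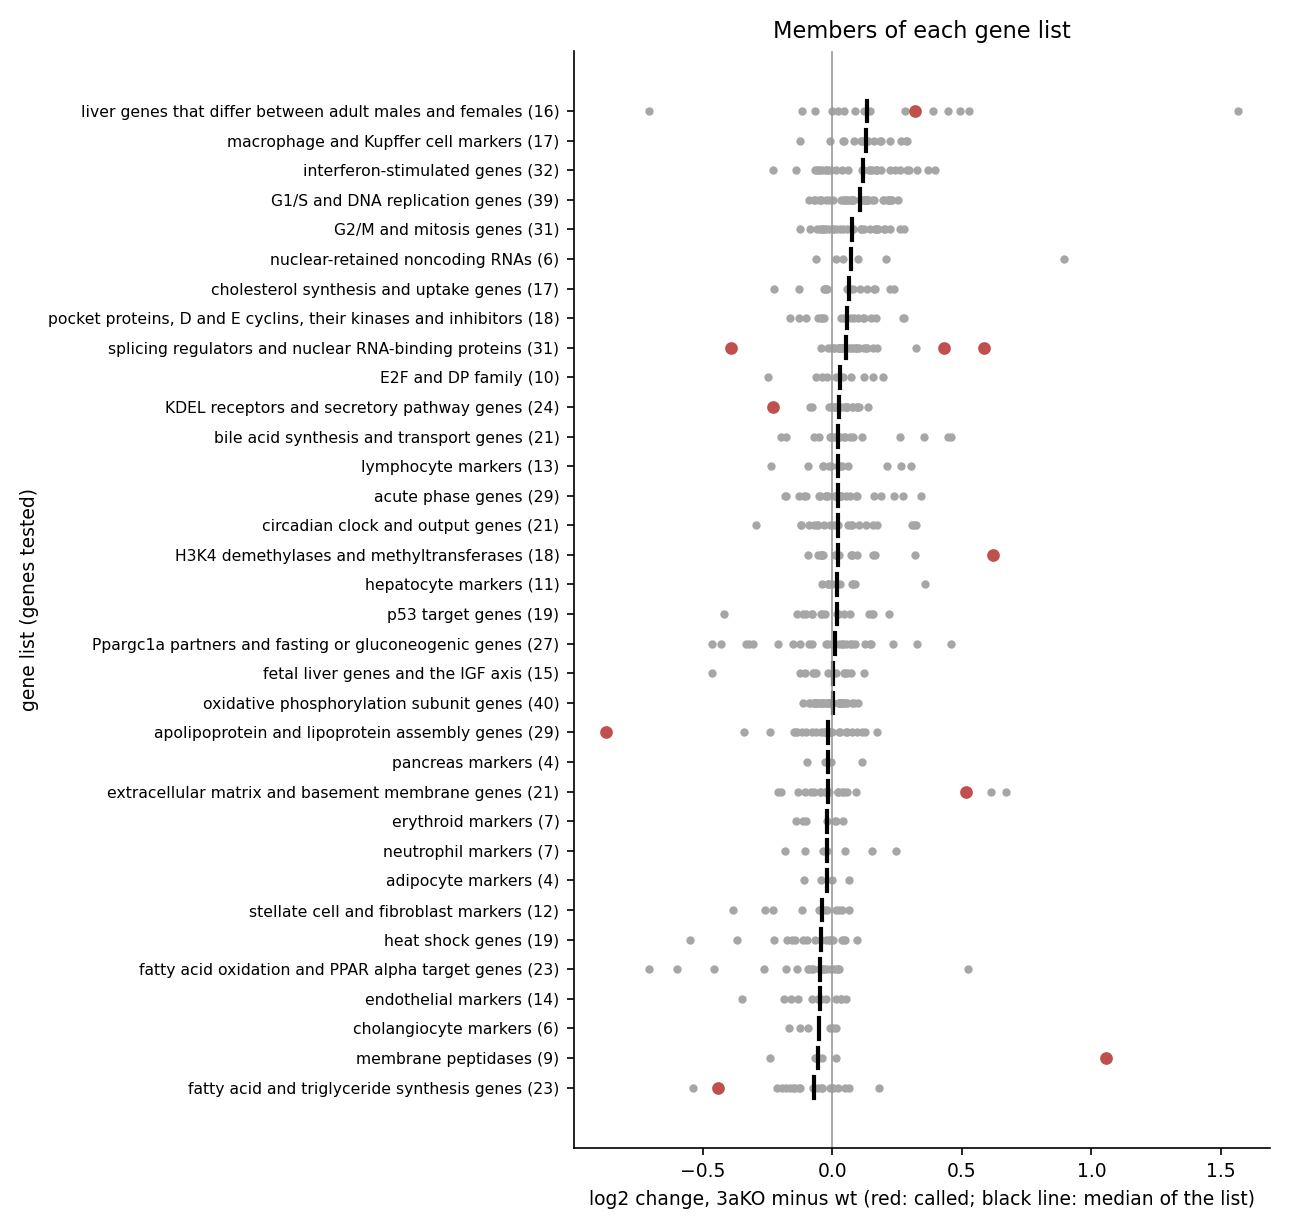
Log2 change (horizontal axis) of each tested member of the gene lists and cell type marker lists, 1 row per list ordered by its median (black line), with called genes in red. Medians lie between -0.07 and 0.13, and each list holds at most 1 called gene, except the splicing and nuclear RNA-binding list with 3. The lists were chosen with earlier results of these data known, so these counts are a description.

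Hepatocyte markers showed the tissue to be liver in both groups, with all 11 tested above the median gene signal and means per array of 13.35 to 13.51 in wt and 13.33 to 13.55 in 3aKO. Endothelial, stellate, cholangiocyte, erythroid, adipocyte and pancreas markers gave 0 calls in limma, with medians from -0.05 to -0.02. At an unadjusted p under 0.05, 1 marker was lower, the cholangiocyte keratin Krt7 (-0.17 ± 0.07), beside 6.99% of all genes. Lymphocyte markers gave 0 calls of 13, with 2 higher and 1 lower at an unadjusted p under 0.05, and neutrophil markers 0 of 7 with 1 lower. The shares over all genes were 4.92% higher and 6.99% lower. In the fit of all probe sets, 1 of 20 lymphocyte probe sets, that of Cd8a, was called lower, beside 0.424% called of all probe sets. Without wt replicates 1 and 2 it did not pass (adjusted p = 0.0943, limma). Of the lymphocyte and neutrophil lists 2 and 0 markers, respectively, were above the median gene signal.

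The called genes were also described by the Y-linked signal of the arrays. Each of the 32 had the same sign among arrays with and among arrays without that signal, which these same arrays were used to choose. A test of the genotype effect between arrays with and without it found 0 of 18193 genes in limma and 1419 (7.8%) at an unadjusted p under 0.05. The latter included 4 of the 32, Septin10 (-0.60, p = 0.00149), Col4a5 (-0.52), Srp72 (0.24) and Rflna (0.22), with adjusted p of 0.504 to 0.640.

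The E2F1 and E2F3b knock-in livers were compared with the same wt arrays, so their values are set beside those of 3aKO without reading a likeness. In 1KI against wt 27.6% of genes were called and in 3bKI against wt 29.2%. Control signals differed between these groups as well. Hybridization controls averaged 11.3 in 1KI and 10.4 in wt, 1KI replicate 6 had a 3' minus 5' difference of 1.75, and poly-A controls ran from 13.77 to 13.85 in 3bKI and from 8.49 to 9.70 on the wt arrays of the same normalization. The part of these differences in the knock-in values was not tested. Apob was at -0.88 in 3aKO, -0.01 in 1KI and -1.97 in 3bKI. Ppargc1a was at 1.12, 0.22 and 0.58 in the same order, Mme at 1.06, 0.16 and -0.94, and Mpst at -0.66, 0.08 and -1.29. Kdm5a was at 0.62, -0.18 and 0.50, Scaf11 at 0.43, -0.13 and -0.13, Celf2 at 0.59, 0.50 and 0.35, and Scd1 at -0.44, 0.17 and -0.19. The 3bKI values come from the second normalization, in which the 3aKO changes of the 32 genes moved by at most 0.06.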

How the data were processed

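Total RNA of mouse liver was measured on 1-colour arrays. The deposited values are log2 signals, normalized by the authors per the labels, which mark 2 normalizations; their method is not stated there, and the log base was read from the values. Names came from the platform annotation (34945 probe sets with 1 symbol, 932 with several, 9160 with none, 64 controls), and each of 18193 genes was represented by its brightest probe set. Limma 3.58.1 in R 4.3.3 (lmFit, eBayes, no trend) was fitted to all 32 arrays of normalization 1, with Benjamini-Hochberg adjustment at 0.05, over genes or over probe sets. Errors are moderated SE. All called genes, E2f1 to E2f3 and up to 3 list members with the smallest unadjusted p under 0.05 were named. Members and lists were chosen with earlier results of these data known. Promoters came from RefSeq. In 10 simulated data sets with 200 changed genes among 18193, 66.9% of changes of 0.3, 92.6% of 0.5 and 98.9% of 1 were recovered, with 4.86% false calls. Whether these rates hold for the real arrays, where 32 genes were called, was not tested. Leaving out 1 real array gave 16 to 56 called genes. The precision is limited by the number of arrays. Fits were repeated without single arrays and with other settings.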

Additional observations from a re-analysis of the deposited data

Results flagged for a closer look

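In 36 values of the 3aKO group (called genes, E2f3 and control measures), 2 had 1 array far from the other 9, and chance gives about 1 in 20. Sp4 was 7.14 in 3aKO replicate 5, with 6.62 next, and its change was 0.35 without that array. Mtpn was 11.8 in 3aKO replicate 8, with 11.9 next, and its change was 0.23 without it. Outside the gene tests, 9 of 10092 probe sets without a single symbol (0.0892%) were called in limma when all 45037 were tested, 6 higher and 3 lower, with changes from -0.37 to 0.63.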

How the results depend on the processing

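The 32 called genes became 15 without wt replicates 1 and 2, 15 with that control level as a block, 307 with array weights (148 higher, 159 lower) and 61 without 1KI replicate 6, an alternative chosen after seeing the data. With the replicate block, 14 genes and 79 probe sets were called. The 10 pairs of the same number correlated between -0.335 and 0.344 (median 0.168, 6 above 0.1), and 1 of 10 3aKO arrays was closest to its own number. Some of these pairs joined an array with Y-linked signal to one without it. Whether the numbers pair the arrays can therefore not be told from these values. Leaving out 1 array gave 16 to 56 genes and 84 to 232 probe sets. The 148 called probe sets became 252 on wt and 3aKO arrays alone, 72 without wt replicates 1 and 2, 82 with the level as a block, 254 with RNA integrity as a covariate, 743 with array weights and 323 without 1KI replicate 6. The cause of these shifts was not tested. The other alternatives kept the gene count within 1.5 times of 32. The second normalization gave 42 genes, 22 of them among the 32, and no named gene reversed its direction with a call. A mean over the probe sets of a gene kept 17 of the 32 calls, and it leaves the values of the 10 genes with 1 probe set unchanged. Among the calls it ended were Apob (-0.21), Ppargc1a (0.55), Kdm5a (0.18) and Scaf11 (0.13). The others it ended were Cux2, Raly, Gprin3, Svs5, Zfp800, Cnot6l, Mtpn, Dnajc6, Dhx36, Rflna and Scd1.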
